A study of Mus musculus with 15 samples.

Results

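The Slit ligands Slit2 and Slit3 and the Roundabout receptors Robo1, Robo2 and Robo4 were followed in skeletal muscle and heart of dystrophic mice treated with the senolytic pair dasatinib plus quercetin (D + Q). They are 5 of the 56980 genes in the deposited expression table, found there by Ensembl identifier, and 5 of the 7 Slit and Robo genes of the mouse annotation. The genes were chosen with measured values in view, selected on, among others, the level of Slit3 in D + Q–treated and vehicle-treated hearts. The comparison of treatment in heart is therefore given for these genes as a description, with no p-value, and nothing is drawn from whether they were called there.

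Bulk RNA-seq libraries came from 15 mice, each labelled as a separate sample. Tibialis anterior (TA) libraries were from 4 D + Q–treated and 4 vehicle-treated mice, which started treatment at 3 months of age and were collected at 5 months after 2 months of treatment. Heart libraries were from 3 D + Q–treated and 4 vehicle-treated mice, which started at 12 months and were collected at 16 months after 4 months of treatment. D + Q or its vehicle was given by mouth, 2 times per week. All mice carried the DBA/2J-mdx genotype, which lacks dystrophin and shows severe dystrophy, so no group stands for healthy muscle. All 4 D + Q–treated TA mice were labelled male, and each vehicle group had 2 males and 2 females. The D + Q–treated hearts were from 2 mice labelled female and 1 labelled male. Tissue, age and length of treatment differed together and cannot be told apart.

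Slits are large secreted proteins that bind the extracellular domains of Robo receptors. They were first known for repelling axons at the midline, and they also steer migrating cells, sprouting vessels and muscle precursors. Robo1 and Robo2 are the classical Slit receptors, whereas Robo4 is found mainly on endothelial cells, where it stabilises the vessel wall, and its direct binding of Slit is disputed. Heparan sulphate proteoglycans on the cell surface strengthen Slit binding, and the srGAP proteins, which bind the inner part of the receptors, Abl kinases and Ena/VASP proteins carry the signal to the actin cytoskeleton.

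On GRCm39, with the GENCODE M39 annotation, Slit2 (ENSMUSG00000031558) lies on the plus strand of chromosome 5 from 48140480 to 48465075 and Slit3 (ENSMUSG00000056427) on the plus strand of chromosome 11 from 35011789 to 35602786. The canonical transcript of each has 36 exons. Robo1 (ENSMUSG00000022883) spans 72105194 to 72844378 on the plus strand of chromosome 16, and Robo2 (ENSMUSG00000052516) spans 73688727 to 75244270 on the minus strand of the same chromosome. Robo4 (ENSMUSG00000032125) is compact, from 37313193 to 37326411 on the plus strand of chromosome 9, next to Robo3. In this annotation 2 genes on the opposite strand share exon bases with Slit3, and 1 on the opposite strand shares them with Robo1. Those genes were not analysed here. On the same strand, 1 gene shares exon bases with Robo2, and its highest level was 0 TPM.

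Both Slit genes carry a copy of the same microRNA. Mir218-1 lies in intron 14 of Slit2 (chromosome 5, 48381284 to 48381393) and Mir218-2 in intron 14 of Slit3 (chromosome 11, 35507643 to 35507752), each on the strand of its host. The mature miR-218-5p of RefSeq is identical from both loci and is shown with its seed, bases 2 to 8, in capitals, because its target letters occur in 3 of the 5 genes described here.
miR-218-5p: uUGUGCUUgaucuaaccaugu
The letters that pair with this seed (AAGCACA, plus strand of the transcript only) were searched in the 3′ untranslated region of each canonical transcript. Of 20854 such regions, 15.05% held a match and 4.27% held one followed by an A. Robo1 held 1 match and Robo2 held 2, of which 1 match in each was followed by an A. Slit2 held 2 matches, while Slit3 and Robo4 held none. These regions were 3492 (Slit2), 3817 (Slit3), 3128 (Robo1), 3987 (Robo2) and 1728 (Robo4) bases long. The shares over all regions were not matched for length, so nothing is read from the difference. The matches followed by an A, in capitals below, lie on GRCm39 at chromosome 16, 72842236 to 72842242 (Robo1, plus strand) and 73692247 to 73692253 (Robo2, minus strand).
Robo1 site: tttggttttaaAAGCACAatca
Robo2 site: tatttggtgatAAGCACAaatc
The matches of Slit2, which hosts the microRNA itself, lie at chromosome 5, 48461885 to 48461891 and 48464188 to 48464194.
Slit2 first site: aatactagcagAAGCACAtcta
Slit2 second site: aattattagcaAAGCACAtaaa
A match is a stretch of letters and not a measured site. Both Mir218 genes were listed at 0 TPM in all 15 libraries, which were made with a kit for messenger RNA.

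The 120 bases before the RefSeq start of Slit2, Slit3 and Robo1 are shown because both ligands differed widely in level and because Slit3 and Robo1 were the members whose D + Q–treated hearts all lay below the vehicle-treated ones. Capitals mark GC boxes (GGGCGG on either strand, overlapping matches counted) and the TATA letters (TATAAA on either strand). Positions are on GRCm38.p6, the build of the sequence table.
Slit3, chr11:35121336-35121455, plus strand: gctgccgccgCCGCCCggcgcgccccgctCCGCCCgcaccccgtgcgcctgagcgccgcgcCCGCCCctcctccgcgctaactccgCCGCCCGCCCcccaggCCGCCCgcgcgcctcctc
Slit2, chr5:47983035-47983154, plus strand: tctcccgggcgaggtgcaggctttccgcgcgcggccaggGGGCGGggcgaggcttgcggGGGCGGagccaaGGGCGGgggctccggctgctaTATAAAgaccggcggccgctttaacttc
Robo1, chr16:72663029-72663148, plus strand: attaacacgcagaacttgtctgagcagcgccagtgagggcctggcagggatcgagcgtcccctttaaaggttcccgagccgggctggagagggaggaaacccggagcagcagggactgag
The Slit3 stretch held 6 GC boxes and was 87.5% G and C, and the Slit2 stretch held 3 GC boxes and 1 TATA match at 72.5% G and C. The Robo1 stretch held neither motif at 61.7% G and C. Among 32851 RefSeq promoters of 300 bases, 35.7% held a GC box and 13.6% the TATA letters, and their median G and C content was 52.7%. Over that longer window of 300 bases, G and C content was 78.3% for Slit3, 68.0% for Slit2 and 57.0% for Robo1, with the same motif counts.

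Expression was deposited as TPM, a transcript abundance scaled for transcript length and to the same total in each library, so that levels can be set side by side between genes. TPM keeps no depth. How many reads stand behind a value is therefore unknown, no counting error can be given, and all errors below are the spread between mice. Libraries had 21830 to 25378 genes above 0 TPM. Xist and Y-linked transcripts matched the labelled sex in 14 of 15 libraries, the exception being D + Q–treated heart replicate 3, which was labelled male. D + Q–treated heart replicate 2 held 66.2 TPM summed over 7 fast skeletal fibre genes, against 1.44 to 2.42 TPM in the vehicle-treated hearts. Cardiomyocyte markers summed to 12215 TPM or more in every heart and to 29.8 TPM or less in every TA, as their tissue labels state.

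Slit3 was the most abundant Slit transcript in every library. Its levels in vehicle-treated TA were 11.3, 10.3, 11.3 and 8.23 TPM, a mean of 10.3 ± 1.43 (SD, n = 4). Those in D + Q–treated TA were 12.0, 8.95, 7.85 and 11.8 TPM, a mean of 10.2 ± 2.08 (n = 4). The groups of TA muscles overlapped over most of their range. Vehicle-treated hearts had 9.71, 9.26, 7.83 and 10.01 TPM, a mean of 9.20 ± 0.965 (n = 4). D + Q–treated hearts had 4.24, 4.28 and 3.77 TPM, a mean of 4.10 ± 0.283 (n = 3). Every D + Q–treated heart thus lay below every other library of the series, and the mean was 2.25-fold lower than in vehicle-treated hearts.

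Slit2 followed another order. It was at 0.415, 0.960, 0.469 and 0.440 TPM in vehicle-treated TA, a mean of 0.571 ± 0.260 (n = 4). In D + Q–treated TA it was at 1.15, 0.556, 0.101 and 0.843 TPM, a mean of 0.661 ± 0.445 (n = 4). The TA groups overlapped, with the D + Q–treated muscles holding both the highest and the lowest value. Vehicle-treated hearts had 4.21, 7.51, 3.78 and 3.51 TPM (4.75 ± 1.86, n = 4) and D + Q–treated hearts 3.37, 3.54 and 3.01 TPM (3.30 ± 0.266, n = 3). All 7 hearts lay above all 8 TA muscles, and 2 of the 3 D + Q–treated hearts lay below every vehicle-treated heart.

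Robo4 was the most abundant receptor transcript in every library. Vehicle-treated TA had 6.005, 9.50, 5.35 and 4.56 TPM (6.35 ± 2.18, n = 4) and D + Q–treated TA 7.24, 5.601, 4.30 and 5.95 TPM (5.77 ± 1.21, n = 4). Levels in heart were tight, at 8.12, 8.53, 9.25 and 8.28 TPM with vehicle (8.54 ± 0.502, n = 4) and 8.92, 9.04 and 8.20 TPM with D + Q (8.72 ± 0.456, n = 3). The heart groups overlapped, and vehicle-treated TA replicate 2, at 9.50 TPM, exceeded all hearts.

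Robo1 was at 1.66, 2.80, 1.75 and 2.58 TPM in vehicle-treated TA (2.20 ± 0.575, n = 4) and at 2.25, 2.18, 1.40 and 1.43 TPM in D + Q–treated TA (1.81 ± 0.465, n = 4). Vehicle-treated hearts had 1.54, 2.16, 1.67 and 1.86 TPM (1.81 ± 0.272, n = 4), within the range of TA. D + Q–treated hearts had 1.19, 1.23 and 1.02 TPM (1.15 ± 0.112, n = 3). As for Slit3, no D + Q–treated heart reached the lowest library of any other group.

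Robo2 was the scarcest of the 5 genes in 13 of 15 libraries. It was at 0.338, 0.293, 0.232 and 0.354 TPM in vehicle-treated TA (0.304 ± 0.0543, n = 4) and at 0.490, 0.188, 0.417 and 0.0373 TPM in D + Q–treated TA (0.283 ± 0.208, n = 4). Hearts had 0.938, 0.774, 0.479 and 1.26 TPM with vehicle (0.862 ± 0.325, n = 4) and 1.202, 0.708 and 0.493 TPM with D + Q (0.801 ± 0.363, n = 3). In each tissue the treatment groups overlapped widely.

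The family members outside the 5 were low. Slit1, a ligand best known from the nervous system, ranged from 0.240 to 1.11 TPM in TA and from 0.0204 to 0.0998 TPM in heart, with no overlap between tissues. Robo3, a receptor of commissural axons, was at or below 0.00645 TPM in TA and between 0.0179 and 0.0806 TPM in heart.

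**Figure D1:**
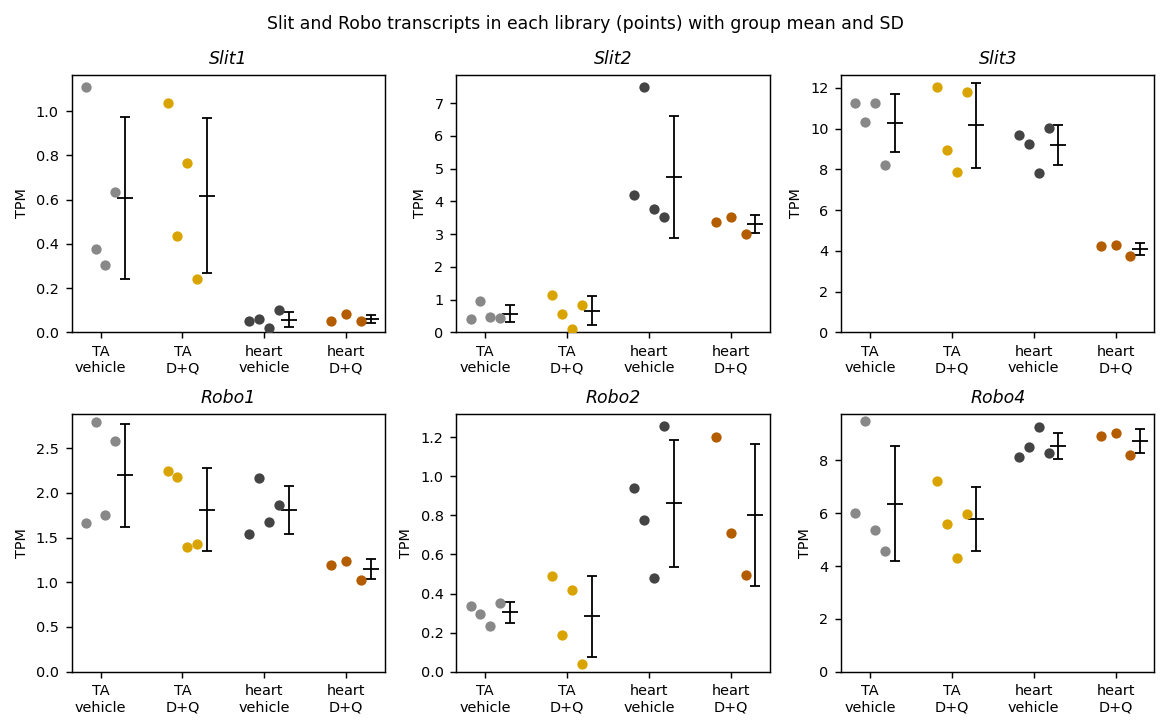
Each point is 1 library, plotted as TPM (vertical axis, from 0) for Slit1, Slit2, Slit3, Robo1, Robo2 and Robo4 in the 4 groups, with the group mean and SD beside the points. The 3 D + Q–treated hearts sit at 3.77 to 4.28 TPM for Slit3, below the lowest value of the other groups (7.83 TPM), whereas Robo4 in the same hearts stays within 8.20 to 9.04 TPM.

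In vehicle-treated TA the order of mean levels was Slit3, Robo4, Robo1, Slit2 and Robo2, and the ranges of Slit3 and Robo4 overlapped, as did no other neighbouring pair. In vehicle-treated hearts the order was Slit3, Robo4, Slit2, Robo1 and Robo2. There, Slit3 and Robo4 again overlapped, and no other neighbours did. In D + Q–treated hearts Robo4 came first and Slit3 second, with no overlap between them, and Slit3 remained above Slit2 in each of the 3 libraries. In terms of rank, mean Slit3 exceeded 79.3% of the 29229 genes detected in vehicle-treated hearts and 64.3% of the 25916 genes detected in D + Q–treated hearts.

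The first comparison asked what D + Q did in TA of young mice. Genes that reached 0.5 TPM in 3 or more libraries entered a limma fit of log2(TPM + 0.5) that also held 1 surrogate variable. The scale understates changes of low genes. To be called, a gene needed an adjusted p (Benjamini-Hochberg, all genes) under 0.05 and a log2 fold change above 0.5 in size. Slit2, Slit3, Robo1 and Robo4 were tested, and Robo2 was below the filter in all 8 muscles. None of the 4 was called, where 0% of 16298 genes tested were called by this rule and 2.99% had an unadjusted p under 0.05, which none of the 4 did. The groups of all 5 genes overlapped, where 1.52% of the genes tested had no overlap.

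Slit3 had a log2 fold change of -0.13 (SE 0.15, 95% interval -0.45 to 0.19, adjusted p = 0.999) in D + Q–treated against vehicle-treated TA. The interval for Slit2 ran from -0.72 to 0.50 around -0.11. For Robo1 it ran from -0.76 to 0.30 around -0.23, and for Robo4 from -0.68 to 0.34 around -0.17. The intervals of Slit2, Robo1 and Robo4 reach past -0.5, so absence of a decrease of the called size was not shown for them. The estimates for Slit2, Robo1 and Robo4 turned positive under other covariates or without single muscles, with values given under the processing alternatives. Over all genes tested, 66.4% had a negative value and the median was -0.07. With libraries rescaled by median-of-ratios factors that median was 0.003. Slit3 was then at -0.07, Robo1 at -0.17, Robo4 at -0.09 and Slit2 at -0.10. Endothelial markers, 12 genes, were lower in 11 with a median log2 fold change of -0.25 in the main fit. They summed to 202 to 304 TPM with D + Q and 231 to 358 TPM with vehicle. Their part in the value of Robo4 was not tested.

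In heart, treatment was fitted with labelled sex in the model. The log2 fold change of D + Q–treated against vehicle-treated hearts was -1.06 for Slit3 (SE 0.11, n = 3 and 4) and -0.50 for Robo1 (SE 0.14), and the groups of both genes did not overlap. It was -0.46 for Slit2 (SE 0.21), -0.06 for Robo2 (SE 0.27) and 0.01 for Robo4 (SE 0.07), whose groups overlapped. Over all 16132 genes of this fit, 0.316% were called, 0.211% as lower, among them Slit3, and 5.57% were lower in every D + Q–treated heart, among them Slit3 and Robo1. Since the choice of genes used this contrast, these counts are background and nothing is read from them. In bulk tissue, fewer cells of a type and less RNA per cell cannot be told apart.

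The log2 fold change of Slit3 in heart lay between -1.42 and -0.92 in 18 alternative fits. Without the heart that held skeletal fibre transcripts (D + Q replicate 2) it was -1.10, and without the heart whose sex went against its label (D + Q replicate 3) it was -0.92. The corresponding values for Robo1 were -0.52 and -0.49. With sex read from expression in place of the label, all 3 D + Q–treated hearts counted as female, and the values were -0.97 for Slit3, -0.55 for Robo1 and -0.62 for Slit2. That fit called 25 genes in all in place of 51. The value of Slit2 rested on vehicle-treated heart replicate 2, without which it was -0.21, and that of Robo2 changed sign to 0.36 without D + Q–treated heart replicate 3.

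**Figure D2:**
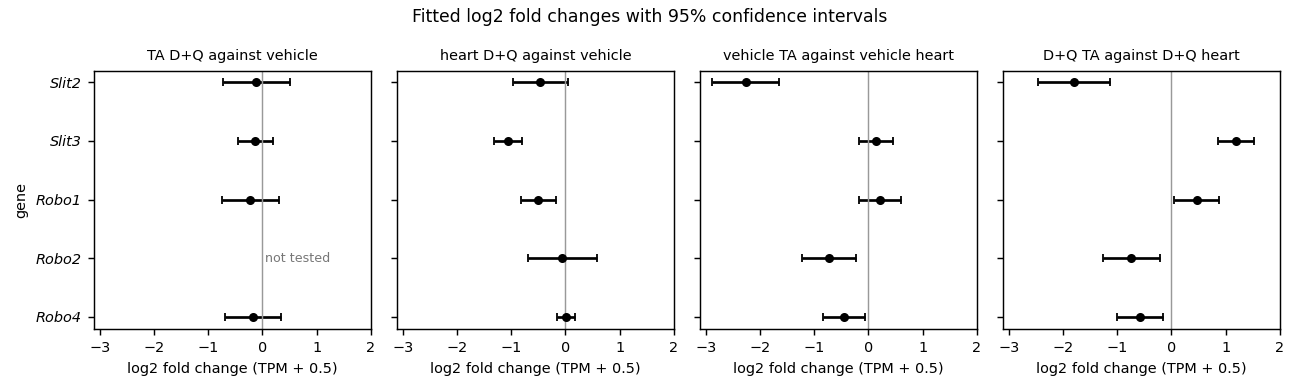
Points are fitted log2 fold changes on log2(TPM + 0.5) (horizontal axis) and bars their 95% confidence intervals for the 5 genes (vertical axis) in 4 comparisons, one per panel. Slit3 sits at -1.06 in heart and at -0.13 in TA, and Robo2 was not tested in TA. The heart panel shows the contrast that entered the choice of genes, so its intervals are a description. The intervals between tissues, among them those of Slit3 and Robo1, rest in part on the same hearts and are a description too.

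Placed in a single fit of all 4 groups, the effect of D + Q in heart minus that in TA was -1.05 for Slit3 (SE 0.22). For Slit2 it was -0.46 (SE 0.42), for Robo1 -0.26 (SE 0.27) and for Robo4 0.13 (SE 0.27). For Robo2 it was 0.01 (SE 0.34). The heart part of these differences is the contrast that entered the choice of genes, so these values are a description and were not tested.

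Several marker lists moved with the treatment of hearts, and their values stand beside those of Slit3 and Robo1. Atrial muscle genes (5 genes, Myl7, Myl4, Sln, Nppa and Bmp10) summed to 864, 4260, 2221 and 1104 TPM in the 4 vehicle-treated hearts and to 382, 427 and 427 TPM in the D + Q–treated ones, and 3 of the 5 were called lower, against the 0.211% of all genes given above. In the order of rising atrial sums, the 4 vehicle-treated hearts had Slit3 at 9.71, 10.01, 7.83 and 9.26 TPM. Slit2 in that order was at 4.21, 3.51, 3.78 and 7.51 TPM, and Robo1 at 1.54, 1.86, 1.67 and 2.16 TPM. With an atrial score in the model in place of sex, the log2 fold change was -1.42 for Slit3 (SE 0.40), -0.01 for Robo1 (SE 0.53) and -0.08 for Slit2 (SE 0.84). These errors are more than 3 times those of the main fit, and since atrial sums did not overlap between the groups, atrial RNA and treatment cannot be told apart in this fit.

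Fibroblast markers, which include Pdgfra and the collagens Col1a1 and Col3a1, were lower in D + Q–treated hearts in 9 of 9 genes, with a median log2 fold change of -0.40 against -0.0025 over all genes tested. None of the 9 was called, and 3 were lower without overlap, as were 5.57% of all genes. Their sum was 640 to 933 TPM with vehicle and 521 to 617 TPM with D + Q. Slit3 per 100 TPM of fibroblast markers was 1.28 ± 0.247 TPM (n = 4) with vehicle, with a lowest library of 0.993, and 0.713 ± 0.0176 (n = 3) with D + Q, with a highest library of 0.723. The groups of this ratio did not overlap. It was formed after the values were seen and rests on the heart values of Slit3 that entered the choice of genes. The ratio is therefore a description, and its denominator sums transcripts and does not count cells. In TA the ratio was 0.688 ± 0.179 with vehicle and 0.789 ± 0.0913 with D + Q (n = 4 each), with overlap.

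Epicardial markers (Wt1, Upk3b, Msln and Upk1b) were lower in 4 of 4 genes, with a median log2 fold change of -0.86 and none called, and summed to 14.97 to 21.2 TPM with vehicle and 10.4 to 13.3 TPM with D + Q. The clock gene Bmal1 was at 1.35 to 3.15 TPM in vehicle-treated hearts and 8.55 to 10.2 TPM in D + Q–treated hearts. Cardiomyocyte markers, 7 genes, were higher in 7 of 7 with none called, and summed to 12215 to 13381 TPM with vehicle and 14950 to 16013 TPM with D + Q. The libraries themselves differed, with 24089 to 25378 genes above 0 TPM and 50.1% to 50.7% of TPM in the 10 most abundant genes with vehicle, and 22579 to 22818 genes and 45.4% to 47.3% with D + Q. The part of these fibroblast, epicardial, clock, cardiomyocyte and library differences in the values of Slit3, Slit2 and Robo1 was not tested.

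The endothelial markers Pecam1, Cdh5, Kdr and 9 others, the cell type in which Robo4 is mainly found, had a median log2 fold change of 0.02 in heart, and none was called. They summed to 374 to 454 TPM with vehicle and 389 to 422 TPM with D + Q. Robo4 per 100 TPM of endothelial markers was 2.07 ± 0.389 in vehicle-treated TA, 2.12 ± 0.214 in D + Q–treated TA, 2.13 ± 0.204 in vehicle-treated hearts and 2.15 ± 0.0407 in D + Q–treated hearts (n = 4, 4, 4 and 3). The 4 means differed by less than any SD but that of the D + Q–treated hearts. Robo4 is not in the list, and this ratio too was formed after the values were seen. With 3 or 4 mice per group it cannot show that the groups are equal. The part of endothelial RNA in the values of Robo4 was not tested.

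**Figure D3:**
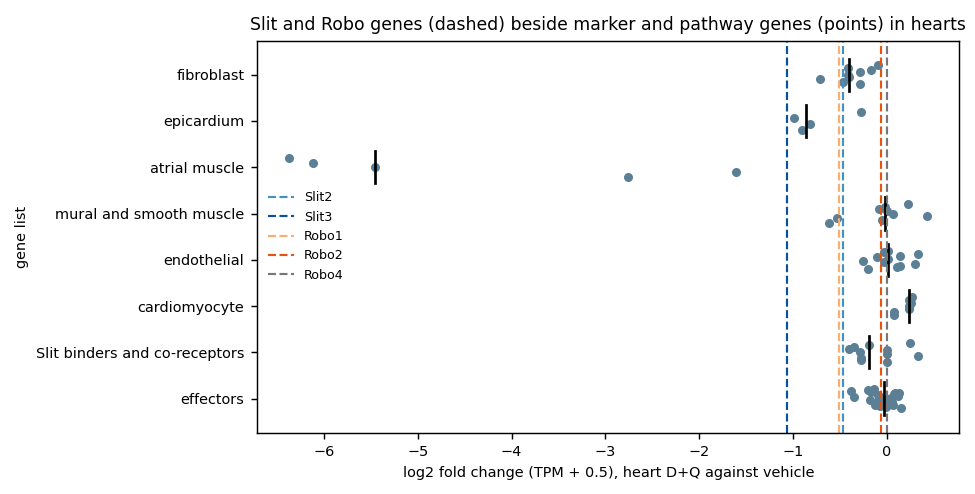
Points are genes of 6 marker lists and 2 pathway lists (vertical axis) at their log2 fold change in D + Q–treated against vehicle-treated hearts (horizontal axis, on log2(TPM + 0.5)), black bars are list medians, and dashed lines are the 5 Slit and Robo genes. Slit3 at -1.06 lies left of every fibroblast and endothelial point, Robo4 at 0.01 lies beside the endothelial median of 0.02, and atrial muscle genes reach furthest left.

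The mean makeup of the ligand pool differed between the tissues and between the heart groups, whose ranges overlapped. Slit3 made up 89.7% ± 2.62 of the TPM of the 3 Slit genes in vehicle-treated TA and 89.1% ± 3.04 in D + Q–treated TA (n = 4 each). It made up 66.3% ± 7.95 in vehicle-treated hearts (n = 4, range 55.0 to 73.5) and 54.9% ± 0.645 in D + Q–treated hearts (n = 3, range 54.2 to 55.4). The ranges of the heart groups overlapped at their edges, since vehicle-treated replicate 2, which had the most Slit2, held 55.0%. The ratio of Slit3 to Slit2 in heart was 2.11 ± 0.671 with vehicle (range 1.23 to 2.85). With D + Q it was 1.24 ± 0.0273 (range 1.21 to 1.26), which overlapped the vehicle range. In vehicle-treated TA the ratio was 10.8 to 27.1. The heart values rest on the Slit3 levels that entered the choice of genes.

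Summed over the 3 ligands, Slit TPM was 11.5 ± 1.504 in vehicle-treated TA, 11.4 ± 2.54 in D + Q–treated TA, 14.0 ± 2.14 in vehicle-treated hearts and 7.46 ± 0.557 in D + Q–treated hearts. Every D + Q–treated heart (6.83 to 7.89 TPM) lay below every vehicle-treated heart (11.6 to 16.8 TPM). The sum of the 4 receptors was 11.3 ± 0.433 TPM with vehicle and 10.7 ± 0.850 TPM with D + Q in heart, with overlap. Ligand over receptor TPM was consequently 1.25 ± 0.188 with vehicle (lowest 1.02) and 0.698 ± 0.0198 with D + Q (highest 0.715) in heart, against 1.35 ± 0.335 and 1.46 ± 0.202 in TA. These heart values rest on the same contrast as Slit3 itself. Among the receptors, Robo4 over Robo1 was 4.80 ± 0.741 with vehicle (highest 5.54) and 7.61 ± 0.363 with D + Q (lowest 7.33) in heart. This ratio too rests on the heart contrast that entered the choice of genes and is a description.

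**Figure D4:**
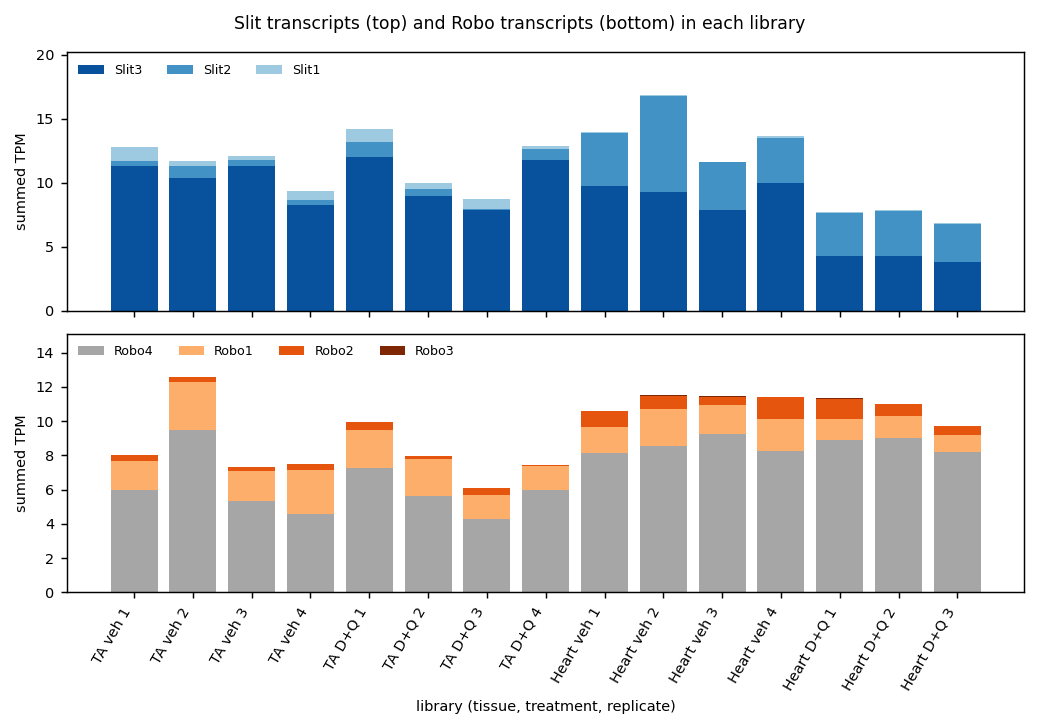
Bars stack the TPM (vertical axis, from 0) of the 3 Slit genes (top) and the 4 Robo genes (bottom) in each of the 15 libraries (horizontal axis). The Slit bars of the 3 D + Q–treated hearts reach 6.83 to 7.89 TPM and those of the 4 vehicle-treated hearts 11.6 to 16.8 TPM, and Slit2 is a thin band in TA but a broad one in heart.

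The second axis of the design was tissue. TA was compared with heart separately for vehicle and for D + Q, in a fit of all 15 libraries in which 17868 genes were tested and all 5 Slit and Robo genes passed the filter. Robo2 passed it only through the hearts and Slit1 only through TA, so their tissue differences are partly built in and are given as values only. Of the 5 genes, 2 were called between vehicle-treated TA and heart, where 36.7% of all genes were called, and 4 between D + Q–treated TA and heart, where 37.3% were. The first count includes Robo2, and the second includes Robo2 as well as Slit3, whose D + Q–treated hearts entered the choice of genes. Leaving these out, Slit2 was called with vehicle, and Slit2 and Robo4 with D + Q. Their calls rest on the same hearts, and which values besides those of Slit3 entered the choice is not known. The p-values of Slit2, Robo1 and Robo4 between tissues are therefore given as a description too. Groups did not overlap for 2 of the 5 with vehicle, where 40.9% of all genes had no overlap, and for all 5 with D + Q, where 46.7% had none.

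With vehicle, Slit2 was lower in TA by 8.32-fold in mean TPM, with a log2 fold change of -2.26 (SE 0.29, 95% interval -2.88 to -1.65, limma adjusted p = 1.11e-05). All 4 muscles lay below all 4 hearts. Robo2 had a log2 fold change of -0.73 (SE 0.23), and -0.60 without vehicle-treated heart replicate 4, the heart with the most Robo2. Slit3 was at 0.15 (SE 0.15), a description only, since its level in these hearts entered the choice of genes. Robo1 did not pass the test, at 0.21 (SE 0.18, limma adjusted p = 0.377). Robo4 was at -0.45 (SE 0.18, adjusted p = 0.0611), with 3 of 4 muscles below all hearts. Without vehicle-treated TA replicate 2, the muscle with the most Robo4, that value was -0.65 and passed the test at an adjusted p of 0.00272. Endothelial markers were lower in TA in 11 of 12 genes, with a median of -0.41 against 0.16 over all genes tested. Of the 12, 5 were called lower, where 14.1% of all genes were. The part of these markers in the value of Robo4 was not tested.

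With D + Q, Slit2 was again lower in TA, by 5.00-fold in mean TPM and -1.80 on the log2 scale (SE 0.31, adjusted p = 0.000233). Robo4 was at -0.58 (SE 0.20, adjusted p = 0.0291) and Robo2 at -0.74 (SE 0.25). All 4 muscles lay below all 3 hearts for these 3 genes. The call of Robo4 was lost without TA replicates 2 or 3 or any 1 of the hearts, at values of -0.45 to -0.62. All D + Q–treated TA mice were labelled male and 2 of 3 hearts female. By expression all 4 muscles were male and all 3 hearts female, so sex and tissue cannot be told apart within the D + Q groups. No fit between tissues used sex read from expression. With labelled sex in the model Robo4 was at -0.48 (limma adjusted p = 0.114) and no longer called. Robo2 was then at -0.76 and Robo1 at 0.66. Slit3 and Robo1 were higher in every D + Q–treated muscle than in every D + Q–treated heart, at 1.19 (SE 0.16) and 0.47 (SE 0.19). Those hearts are the ones whose values entered the choice of genes, so these 2 differences are given as a description. Slit1 was at 0.93 (SE 0.24) with vehicle and 0.94 (SE 0.26) with D + Q. A rescaling of the libraries by median-of-ratios factors moved the median of all genes between the vehicle groups from 0.16 to -0.0036 on the log2 scale, and the value of Slit3 to -0.03.

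The other genes of the pathway were taken from a list of 14 Slit binders and co-receptors and 24 effectors, compiled from textbook knowledge. In TA, 35 of the 38 were tested and none was called with D + Q. Their median log2 fold change was -0.10, against -0.07 over all genes tested. The binders with the smallest unadjusted p were the syndecan Sdc4, at 28.6 ± 15.8 TPM with vehicle and 51.0 ± 32.9 TPM with D + Q, and the netrin receptor Unc5b, at 3.60 ± 0.807 and 2.25 ± 0.446 TPM (n = 4 each). Both groups overlapped, with an adjusted p of 0.999 by limma. The glypican Gpc1 (0.22, SE 0.20) and the syndecan Sdc3 (-0.35, SE 0.16) came next in their directions.

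In heart, 35 of the 38 were tested and none was called with D + Q either, with a median log2 fold change of -0.05. Groups did not overlap for 4 of the 35, of which 3 were higher and 1 lower, where 15.2% of all genes tested had no overlap. Dag1, which encodes dystroglycan, a Slit-binding protein that also anchors dystrophin to the cell surface, was at 103 ± 6.64 TPM with vehicle (n = 4) and 130 ± 2.08 TPM with D + Q (n = 3). Its log2 fold change was 0.33 (SE 0.06, limma adjusted p = 0.0922). Gpc1 was at 109 ± 11.2 and 133 ± 8.29 TPM (0.26, SE 0.06, adjusted p = 0.111). The syndecan Sdc1 (-0.40, SE 0.12) and the glypican Gpc6 (-0.34, SE 0.11) had the smallest unadjusted p among genes with lower values, and their groups overlapped. The srGAPs Srgap1, Srgap2 and Srgap3 were not called in heart.

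Between the tissues, 36 of the 38 were tested. With vehicle, 11 were called higher and 5 lower in TA, and with D + Q 10 and 5, where 22.6% and 14.1% of all genes were called higher and lower with vehicle and 21.4% and 15.9% with D + Q. The balance of these counts moved with the scaling. With median-of-ratios factors, 8 of the list were called higher and 6 lower in both comparisons, and over all genes 2909 were called higher and 3317 lower with vehicle, in place of 4038 and 2518, and 3260 and 3477 with D + Q, in place of 3824 and 2847. Unc5c passed the filter only through the hearts and Flrt3 only through TA, and counted over the 34 genes that passed it in each tissue, as was done after the values were seen, calls were 10 higher and 4 lower with vehicle and 9 and 4 with D + Q. Pak1, a kinase that links Rac to actin, was at 15.7 ± 3.49 TPM in vehicle-treated TA and 1.28 ± 0.346 TPM in vehicle-treated hearts (3.18, SE 0.21, limma adjusted p = 6.01e-09). Paxillin (Pxn), an adhesion scaffold, was higher in TA at 1.24 (SE 0.19), and so were Srgap3 at 1.04 (SE 0.24), the kinase Abl2 at 0.94 (SE 0.20) and the GTPase Cdc42 at 0.83 (SE 0.09). The syndecans Sdc4 and Sdc1 and the exchange factor Sos1 were also called higher in vehicle-treated TA, and the adhesion protein Flrt3 had a value of 0.52 that was not called with median-of-ratios scaling.

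Gpc6 was lower in TA, at 2.79 ± 0.509 TPM against 9.43 ± 1.85 TPM in vehicle-treated hearts (-1.59, SE 0.19, limma adjusted p = 7.32e-06). The actin regulator Enah (-1.09, SE 0.37), Unc5b (-1.04, SE 0.16) and the Rac activator Dock1 (-0.70, SE 0.17) were lower as well. With D + Q, Pak1 (3.51, SE 0.22), Gpc6 (-1.60, SE 0.21), Unc5b (-1.35, SE 0.17) and Dock1 (-0.89, SE 0.18) were called in the same directions, and Sdc2 (-0.56, SE 0.15) was called lower in TA. Enah was at -0.77 with D + Q and was not called (limma adjusted p = 0.134). Unc5c had a value of -0.84 (SE 0.24), with the limit of the filter given above.

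For each of the 5 genes, the 3 genes with the nearest profile over the 15 libraries were taken from the 17868 genes tested, by the mean absolute difference of log2(TPM + 0.5) after each gene had been centred on its own mean. The libraries share tissue and treatment, so nearness reflects these groups. Nearest to Slit3 were the transporter Abcb1b (0.197), the angiotensin-converting enzyme Ace (0.2002) and Mob3a (0.2002). Ace had means of 41.6 TPM in vehicle-treated TA, 45.1 TPM in D + Q–treated TA, 27.9 TPM in vehicle-treated hearts and 17.0 TPM in D + Q–treated hearts. Nearest to Slit2 were the cyclin Ccnd2 (0.208), the smooth muscle myosin light chain Myl9 (0.219) and Plekha6 (0.222), each with a higher mean in both heart groups than in both TA groups.

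Robo1 had closer neighbours, Traf4 (0.104), Gm20008 (0.126) and Gli3 (0.128), a transcription factor of Hedgehog signalling. Gli3 means were 3.51, 3.14, 2.48 and 1.88 TPM in vehicle-treated TA, D + Q–treated TA, vehicle-treated hearts and D + Q–treated hearts. Robo4 had the closest of all, Crtap (0.0793), Pea15a (0.0836) and Arhgef12 (0.0883), and Crtap had means of 29.6 TPM in vehicle-treated and 30.0 TPM in D + Q–treated hearts. Robo2 was nearest to 3 genes of low level, Gm38315 (0.178), 2900018N21Rik (0.193) and Gm10287 (0.197).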

How the data were processed

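Bulk RNA-seq of TA (8 mice) and heart (7 mice) was analysed. The authors trimmed reads with Trim Galore 0.6.10, quantified them with Salmon 1.10.3 on GRCm39 and summarised them with tximport, per the labels and methods, and deposited TPM for 56980 genes. Depth is lost on this scale. Whether counting used strand is not given in the sources used here. Of the identifiers, 56236 were matched to GENCODE M39 symbols.

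Here, log2(TPM + 0.5) was fitted in R 4.3.3 with limma 3.58.1 (trend), after a filter of 0.5 TPM in 3 libraries. TA had 1 surrogate variable (5 re-weighting rounds, written out for these values), heart labelled sex, and tissue contrasts the 4 group means. p-values were adjusted over all genes of a fit by Benjamini-Hochberg. The code was tested on simulated data. Genes and lists were chosen with earlier results of these data known. Named pathway genes are called genes whose groups do not overlap, up to 10 per direction, or, where none was called, the 2 with the smallest unadjusted p per direction, and for each of the 5 genes the 3 nearest profiles. No libraries were identical. Labels share replicate numbers between groups, but the mice differ. Alternatives covered pseudocount, filter, scaling, trend, fold minimum, covariates, replicate block and leaving out each library.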

Additional observations from a re-analysis of the deposited data

Results flagged for a closer look

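Slit2 in vehicle-treated TA replicate 2, at 0.960 TPM, stood apart from the other 3 vehicle-treated muscles, which lay between 0.415 and 0.469 TPM. Its gap to the nearest of them, relative to the range of the group, exceeded Dixon's critical value of 0.829 for 4 samples. It was the 1 value to do so among 15 groups of 4 libraries examined, and chance alone gives about 1 in 20. The same muscle had the highest Robo4 (9.50 TPM) and Robo1 (2.80 TPM) of the vehicle-treated TA group, and its endothelial and fibroblast markers summed to the highest values of that group, at 358 and 1798 TPM. The part of these markers in the value of Slit2 was not tested.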

How the results depend on the processing

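In TA, no member was called under any of 19 alternatives. In heart the count of members called fell from 1 to 0 with no filter, without the trend, with a replicate block and with the atrial score. It ranged from 0 to 1 when each heart was left out (0 in 6 of 7 fits, 1 without vehicle replicate 3). Over all genes the main heart fit called 51. That total was 0 with no filter, 13 without the trend, 4 with the replicate block and 0 with the atrial score. Nothing is read from the heart count of members, since the choice of genes used this contrast. The log2 fold change of Slit3 in heart with the replicate block was -1.03. Between vehicle groups the count fell from 2 to 1 at a pseudocount of 1 or a filter of 1 TPM and rose to 3 with median-of-ratios scaling, and ranged from 1 to 3 without single libraries (1 without vehicle-treated heart replicate 4, 3 without vehicle-treated TA replicate 2). Between D + Q groups it ranged from 2 to 4 (main 4), with 2 without TA replicate 2 or heart replicates 1 or 2. Signs turned in TA for Slit2 with the replicate block (0.051), no covariate (0.051), and labelled sex or males only (0.21), for Robo1 (0.046) and Robo4 (0.0039) with labelled sex or males only, and without single muscles ranged from -0.324 to 0.273 for Slit2, -0.371 to 0.064 for Robo1 and -0.34 to 0.027 for Robo4. Slit3 between vehicle groups turned to -0.033 with median-of-ratios scaling. The cause of these shifts was not tested. The replicate block changed no other call. Deviations of same-numbered libraries correlated at -0.12 on average in TA (4 pairs) and 0.0035 in heart (3 pairs), so the numbers were taken as names only.

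Limits are the 3 or 4 mice per group, the unknown depth behind values under 1 TPM such as those of Robo2 and of Slit2 in TA, and the lack of a wild-type group.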
